A study of Mus musculus with 15 samples.

Results

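The genes described here encode the proteins of the cytoplasmic ribosome. Members were taken by symbol from the feature table, as every Rpl or Rps symbol followed by digits and at most 1 letter a, x or l, together with Rplp0, Rplp1, Rplp2 and Rpsa. The rule found 80 members among 32285 genes, of which 49 encode proteins of the large 60S subunit and 31 encode proteins of the small 40S subunit. All 80 are annotated as protein coding in GENCODE vM21, and they lie on 19 chromosomes. Membership used no measured value. The set, and Rpl27 and Rps29 by name, were however chosen with earlier results of these data known, so their p-values are not independent of that choice.

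Each ribosomal protein is built into the ribosome beside the ribosomal RNAs, so most cells transcribe the whole set together, and their mRNAs share a pyrimidine-rich start that ties their translation to growth signals. Male germ cells add a complication. The X chromosome is silenced as spermatocytes enter pachynema, and X-linked ribosomal protein genes then depend on autosomal copies that arose by retroposition, such as Rpl10l for Rpl10 and Rpl39l for Rpl39. Spermatids later shut down transcription as their chromatin is compacted, so the mRNAs seen in the last stages are largely stored ones.

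Testes of adult DBA/2J male mice were dissociated and profiled by droplet-based single-cell RNA sequencing, with 15 libraries from 1 mouse each and 3 mice per group. JQ1, a small molecule that blocks the bromodomains of the BET proteins including the testis-specific BRDT, was injected daily into the peritoneum at 50 mg/kg for 3 weeks. Group T was taken at the end of dosing at 10 weeks of age and group R at 16 weeks of age, 6 weeks after the last dose. Groups VC-T and VC-R received vehicle on the same schedules at the same ages, and group UC was untreated and 15 weeks old. A change between T and UC therefore cannot be told apart from a change with age or with injection unless vehicle libraries are read beside it, and UC libraries serve as the common controls of T and of R.

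The libraries held 9673587 to 98724982 unique molecular identifiers (UMIs, 1 per captured mRNA molecule) in 3407 to 14221 barcodes, and 72362 cells were kept. Cells were clustered without the members and their near copies and were named by marker genes, so the members did not define the stages. Each name means cells that resemble that type by its markers (X-like cells), spermatogonia, spermatocytes, spermatids and spermatozoa among them, and spermatocytes were split into early and late ones. The T libraries held 1 to 4 spermatozoa each and are not compared in that stage. Library VC-T 1 stands apart: it held no spermatozoa and only 0.802% early spermatocytes among its spermatocytes, as in T (0.538% to 1.01%), against 20.8% to 28.9% in VC-T 2 and 3. The study treated it as an outlier, so comparisons with VC-T are given both without and with it. In addition, 4 spermatid clusters of low UMI count held 66.2% to 86.7% of the spermatids in R and 80.8% in VC-T 2, against 5.96% to 24.5% in the other libraries. No pair of libraries within a group agreed within sampling noise, and at most 0.554% of the barcodes of the smaller library were shared by any pair.

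Levels are given as CPM, the UMIs of a gene per 1000000 UMIs of the stage in 1 library. Reads came from the 3′ end of each transcript. Over the last 300 bases of the annotated transcript, 59 of the 80 members share at least 1 stretch of 31 bases with another gene, mostly a processed pseudogene, and 39 share over 50% of such stretches. The share is 100% for Rpl10, Rpl36a and Rps27, 85.2% for Rpl7a, 84.4% for Rpl27, 67.8% for Rpl38, 52.2% for Rps29, 33.0% for Rpl39 and 14.4% for Rps7, and it is 0 for Rpl10l and Rpl39l. Counts of members with high shares are uncertain, because reads that fit several genes may not be counted, and levels are therefore compared between samples and not between genes.

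The X-linked genes and their copies carry the clearest stage pattern, so their coding sequences are shown first, read from GENCODE transcripts on GRCm38 with the bases that differ within a pair in capitals. Rpl39 is on chromosome X (37082701 to 37085127 from start to stop codon, minus strand) and Rpl39l is on chromosome 16 (10174310 to 10174465, plus strand). Both coding sequences have 156 bases and differ at 23 of them, an identity of 85.3%.
Rpl39: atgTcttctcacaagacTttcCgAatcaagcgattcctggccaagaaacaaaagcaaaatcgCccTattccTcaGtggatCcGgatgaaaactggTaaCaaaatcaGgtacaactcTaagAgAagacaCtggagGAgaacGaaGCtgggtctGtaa
Rpl39l: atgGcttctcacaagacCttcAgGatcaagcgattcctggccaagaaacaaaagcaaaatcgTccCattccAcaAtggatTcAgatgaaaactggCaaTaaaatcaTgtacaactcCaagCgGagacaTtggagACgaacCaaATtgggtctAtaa
The differing bases fall at the third position of a codon in 16 cases and touch 21 codons.

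Rpl10 is on chromosome X (74271002 to 74273067, plus strand) and Rpl10l is on chromosome 12 (66283713 to 66284357, minus strand). Their coding sequences have 645 bases and differ at 98 of them, an identity of 84.8%, with 89 of the differences at the third codon position. The first 240 bases are shown, in which capitals again mark the differing bases.
Rpl10: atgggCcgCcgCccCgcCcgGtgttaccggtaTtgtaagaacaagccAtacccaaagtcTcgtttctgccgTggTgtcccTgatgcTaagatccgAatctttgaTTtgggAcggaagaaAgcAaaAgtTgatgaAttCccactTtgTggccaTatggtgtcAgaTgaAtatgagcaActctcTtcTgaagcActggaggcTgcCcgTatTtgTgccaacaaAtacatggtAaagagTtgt
Rpl10l: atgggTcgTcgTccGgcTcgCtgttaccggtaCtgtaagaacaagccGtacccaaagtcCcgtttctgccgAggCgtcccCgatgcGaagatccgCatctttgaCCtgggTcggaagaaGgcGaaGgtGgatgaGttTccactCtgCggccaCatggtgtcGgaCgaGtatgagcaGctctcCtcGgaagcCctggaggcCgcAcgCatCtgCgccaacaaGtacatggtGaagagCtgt
At this divergence sequencing reads can be assigned to 1 gene of the pair, although Rpl10 itself shares its 3′ end with pseudogenes.

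The summed share of the 80 genes fell stepwise along spermatogenesis. In UC it was 13.6% ± 0.702 of UMIs in spermatogonia, 7.84% ± 0.549 in early spermatocytes, 5.66% ± 0.173 in late spermatocytes, 4.04% ± 0.141 in spermatids and 3.40% ± 0.0637 in spermatozoa (SD, n = 3 libraries). No stage overlapped its neighbour in any of the 3 UC mice. The 60S and 40S sets moved together, from 7.62% and 5.99% of UMIs in spermatogonia to 1.91% and 1.5% in spermatozoa. Somatic cells held intermediate shares, with 5.03% ± 0.351 in the Sertoli-like cells of UC (n = 3).

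**Figure D1:**
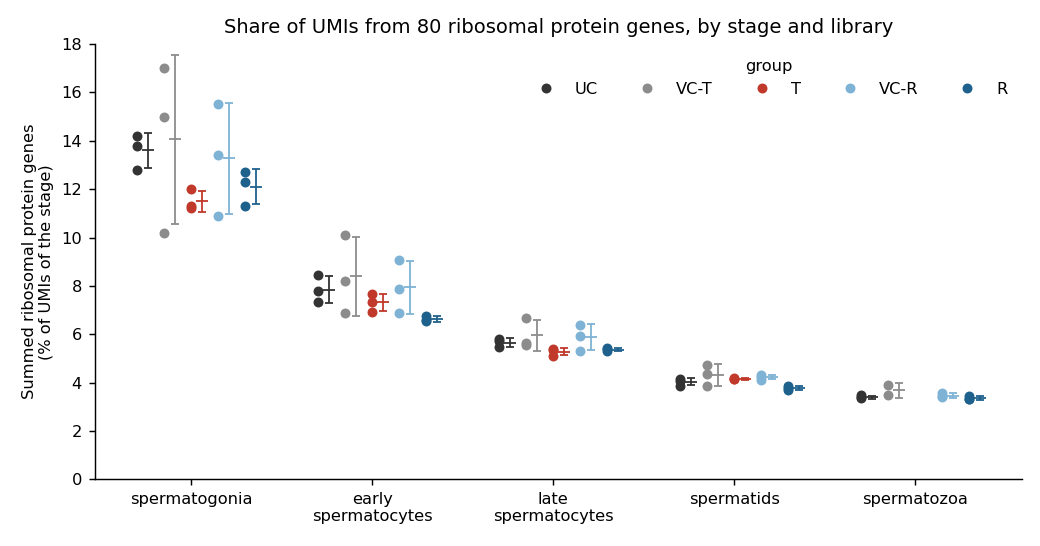
Summed UMIs of the 80 ribosomal protein genes as a percent of all UMIs of the stage (y axis), by stage (x axis) and group (colour); each point is 1 library, and the bar beside it gives the mean and SD. The share fell from about 13.6% in UC spermatogonia to 3.40% in UC spermatozoa, while group means spanned 11.5% to 14.0% in spermatogonia and 3.79% to 4.33% in spermatids.

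In UC, 68 of the 77 members tested were lower and 2 were higher in early spermatocytes than in spermatogonia, with the mouse as a block (edgeR quasi-likelihood test, adjusted p under 0.05 over all genes). Of all genes tested, 22.3% were lower and 21.4% higher, and the members' median difference was -0.92 on the log2 scale against -0.0028 over all genes. Rps3, a 40S protein that also takes part in DNA repair, had 1489 CPM in spermatogonia and 375 CPM in early spermatocytes (means of 3 mice, log2 difference -2.12, SE 0.12, adjusted p = 2.9e-08). Rplp2 of the ribosomal stalk fell by 1.73 and the 40S gene Rps16 by 1.54. Rpl10l rose.

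Later steps split the set. From early to late spermatocytes 22 members rose and 27 fell of 79 tested (32.3% and 27.4% of all genes), from late spermatocytes to spermatids 8 rose and 36 fell of 76 (40.0% and 40.0% of all genes), and from spermatids to spermatozoa 62 rose and 9 fell of 76 (36.2% and 40.7% of all genes). These splits depend on how a library is scaled. With total UMIs in place of trimmed means (TMM) the same steps gave 4 higher and 51 lower, 1 higher and 55 lower, and 16 higher and 48 lower. Of all genes 22.6% were then higher and 36.7% lower, 36.7% and 45.6%, and 13.0% and 76.2%. The median of all genes shifted from 0.14 to -0.37, from -0.02 to -0.33 and from -0.16 to -1.60. The drop into spermatids rested on fewer calls elsewhere: 18 rose and 23 fell with RLE size factors (42.8% and 36.2% of all genes). With 10% of the pooled profile taken off as free RNA, 0 and 8 passed (24.4% and 24.5% of all genes). The counts were 3 and 26 without UC 2 (30.9% and 29.4% of all genes) and 0 and 8 without UC 3 (7.10% and 14.7%).

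Several members fell under either scaling. Rpl14 fell from 255 CPM in late spermatocytes to 23.3 CPM in spermatids (log2 difference -3.17, SE 0.18, adjusted p = 0.0030) and Rps27a, which encodes a ubiquitin fused to a 40S protein, fell from 1112 to 124 CPM (-2.88, SE 0.16, adjusted p = 0.0030). Rpl4, Rpl15 and Rpl9 fell by 1.62, 1.41 and 1.13. Between early and late spermatocytes Rpl22, which is known for a role in lymphocyte development, fell from 822 to 200.5 CPM (-1.54, SE 0.14, adjusted p = 6.1e-07).

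A few members dipped and then stood near or above their spermatogonial level in spermatozoa. Rps20 had 2340 CPM in spermatogonia, 1660 CPM in spermatids and 3330 CPM in spermatozoa, the last of these 3248, 3418 and 3323 CPM in the 3 mice. Rpl41, which encodes the smallest ribosomal protein, had 2079, 1196 and 2078 CPM in the same stages. Rps20 was the only member at or above its spermatogonial level in spermatozoa, and the median member stood at 58.3% of that level in early spermatocytes, 39.1% in late spermatocytes, 24.9% in spermatids and 20.7% in spermatozoa. In spermatozoa 20 of the 79 members above 10 CPM in spermatogonia were under 10%, among them Rpl4, Rpl5, Rpl14, Rps3, Rps27a and the 4 X-linked genes.

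**Figure D2:**
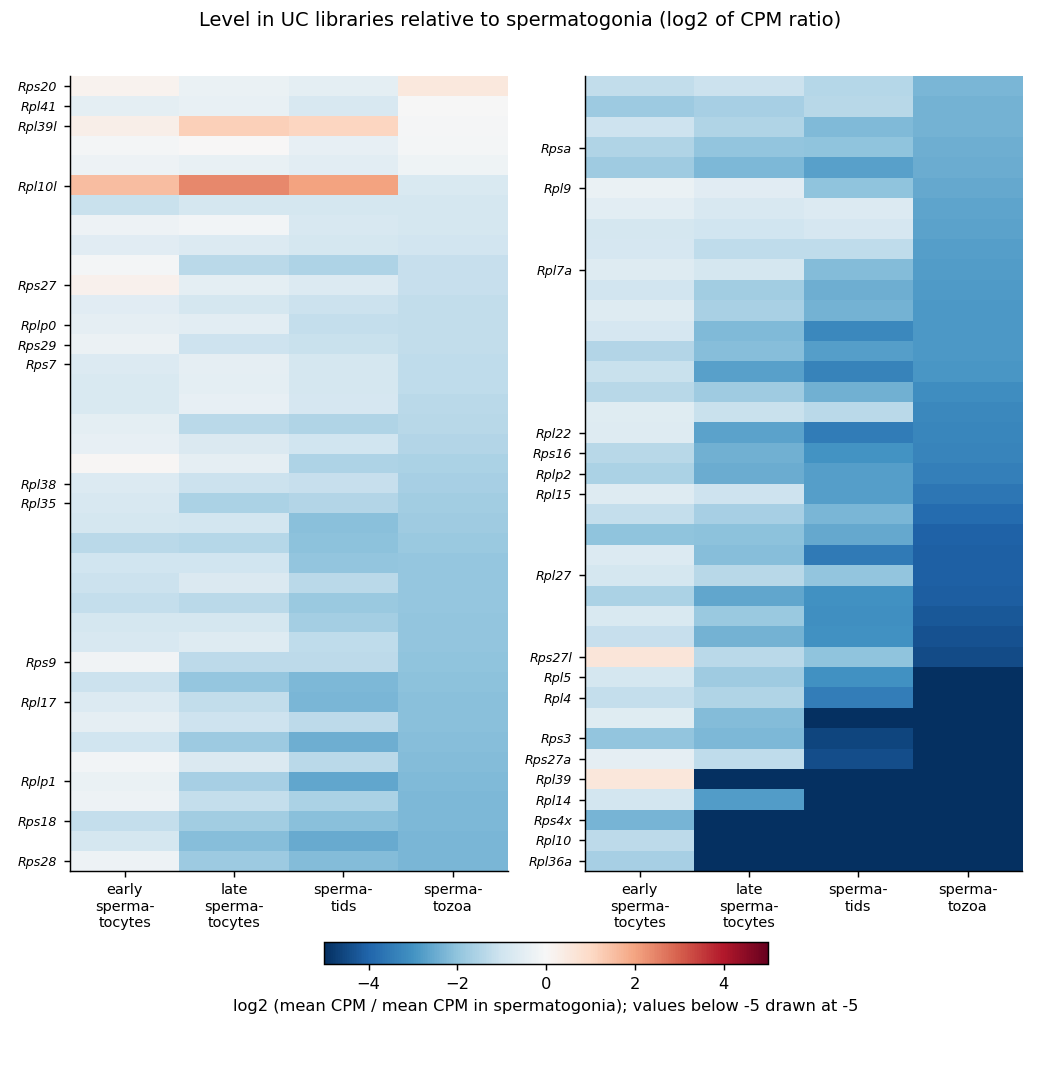
Level of 79 ribosomal protein genes in UC, as log2 of the mean CPM in early spermatocytes, late spermatocytes, spermatids and spermatozoa (columns) over the mean CPM in spermatogonia (n = 3 mice); genes (rows) are sorted by their level in spermatozoa, and only some genes described in the text are labelled. Most rows turn blue by spermatids, Rpl10l and Rpl39l are red in late spermatocytes, and the X-linked Rpl10, Rpl36a, Rpl39 and Rps4x drop out at that stage.

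The 4 X-linked members were nearly lost at the step into late spermatocytes. Rpl39 had 274, 160 and 256 CPM in early spermatocytes of the 3 UC mice and 5.12, 0.370 and 1.36 CPM in late spermatocytes (log2 difference -6.26, SE 0.44, adjusted p = 5.8e-08). Rpl10 had 137, 129 and 200.1 CPM and then 8.61, 1.11 and 2.96 CPM (-4.89, SE 0.47, adjusted p = 1.1e-06). Rpl36a had 190, 104 and 164 CPM and then 3.96, 1.48 and 0.909 CPM (-5.77, SE 0.44, adjusted p = 1.3e-07). Every early value lay far above every late value, and the highest late value of each gene came from UC 1. Rps4x, the lowest of the group, went from 15.1 to 2.01 CPM (-3.05, SE 0.93, adjusted p = 0.011).

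The autosomal copies rose as their parents went. Rpl10l had 38.3, 20.4 and 14.3 CPM in spermatogonia, 52.8, 79.8 and 82.0 CPM in early spermatocytes and 126, 131 and 124 CPM in late spermatocytes (late against early 1.27, SE 0.25, adjusted p = 0.00058). Rpl39l was already at 536, 529 and 569 CPM in spermatogonia and reached 1205, 1240 and 1336 CPM in late spermatocytes (late against early 1.41, SE 0.13, adjusted p = 7.3e-07). Both directions held for every mouse. In spermatozoa Rpl10l was down to 14.3 CPM, whereas Rpl39l stood at 518 CPM.

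Expressed as a share of the pair, Rpl10l supplied 10.3%, 4.85% and 3.30% of the UMIs of Rpl10 and Rpl10l in UC spermatogonia, 27.8%, 38.2% and 29.1% in early spermatocytes, 93.6%, 99.2% and 97.7% in late spermatocytes and 93.1%, 92.2% and 92.7% in spermatids. The spermatogonial shares rest on only 4, 5 and 6 UMIs of Rpl10l. Rpl39l supplied 78.3% ± 7.96 of its pair in spermatogonia, 74.7% ± 5.60 in early spermatocytes and 99.8% ± 0.209 in late spermatocytes. The shares are read between stages and not as the true ratio of the genes. Rpl10 shares 100% and Rpl39 33.0% of its 3′ stretches with other genes and the copies share 0, and the effect of this on the shares was not tested. Rps27l, an autosomal copy of Rps27 known as a p53 target, went the other way, from 876 CPM in early to 224 CPM in late spermatocytes (-1.47, SE 0.16, adjusted p = 3.4e-06), and the muscle-specific Rpl3l stayed near 0 in every library and passed no filter.

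**Figure D3:**
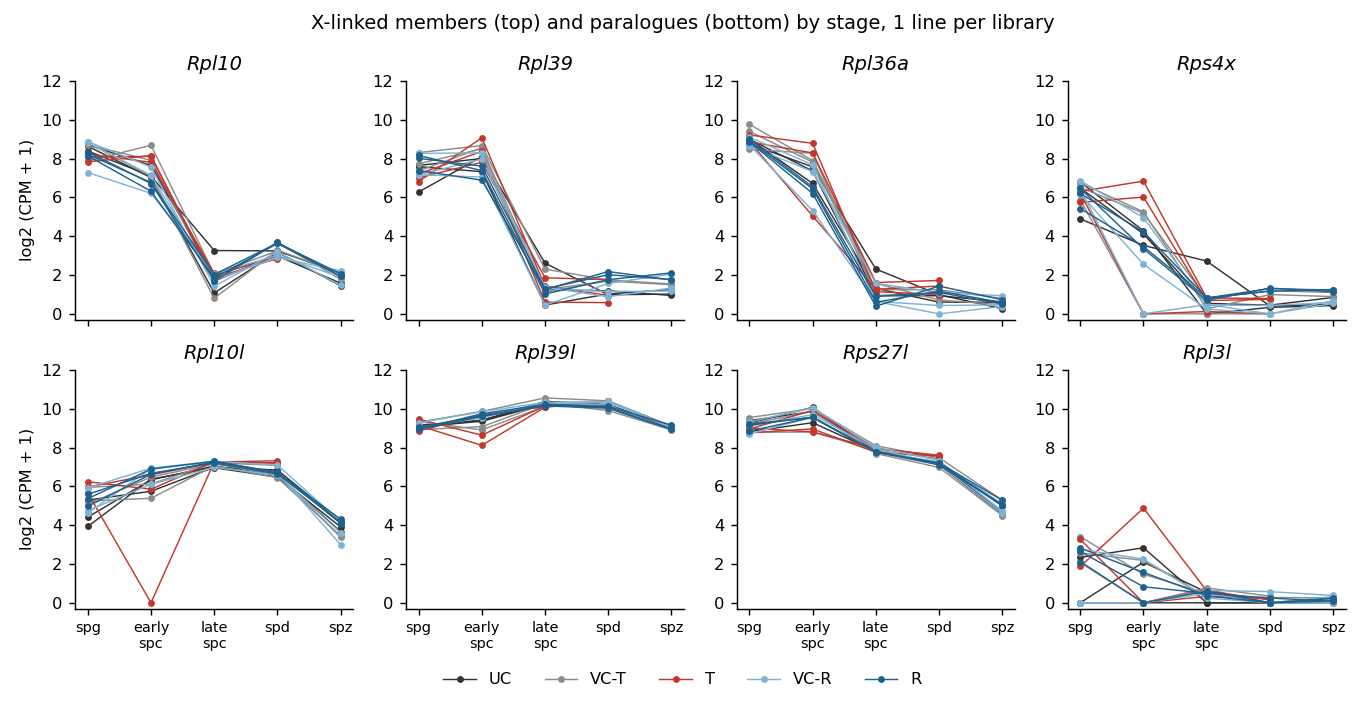
log2(CPM + 1) of the X-linked Rpl10, Rpl39, Rpl36a and Rps4x (top) and of the copies Rpl10l, Rpl39l, Rps27l and Rpl3l (bottom) in spermatogonia (spg), early and late spermatocytes (spc), spermatids (spd) and spermatozoa (spz), with 1 line per library coloured by group. Rpl10, Rpl39 and Rpl36a dropped between early and late spermatocytes in all 15 libraries and Rps4x in 12, while Rpl10l and Rpl39l were higher in late ones in all 15. The T libraries rest on 11 to 25 early spermatocytes each.

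The same step was seen in T and R. In late spermatocytes Rpl10l supplied 98.6%, 98.3% and 97.9% of its pair in T and 98% to 98.5% in R, and Rpl39l supplied at least 99.8% of its pair in each of these libraries. These shares lie near their upper limit, and with 3 against 3 libraries the exact two-sided permutation test, run on 18 such comparisons, cannot give a p below 0.1, so a small difference could not have been called. In spermatids the Rpl10l share was 95.3%, 96.2% and 96.0% in T, above the 3 UC values, and 89.3%, 90.2% and 90.1% in R, below them (exact permutation p = 0.1 each). VC-T spermatids spanned 87.9% to 94.1% and VC-R spermatids 92.1% to 95.0%.

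Before the switch the Rpl10l share in T lay above UC in spermatogonia. In early spermatocytes too few UMIs were counted in T to read a direction. There the share was 16.7%, 0% and 30% in T against 27.8% to 38.2% in UC, with overlap. Those T shares rest on 2, 0 and 3 UMIs of Rpl10l. The R shares in that stage were 49.3%, 47.6% and 59.8%, above UC, with VC-T at 14.3% to 39.7% and VC-R at 26.5% to 62.5%. In spermatogonia the Rpl10l share was 24.7%, 15.5% and 16.9% in T against 3.30% to 10.3% in UC (exact permutation p = 0.1), and Rpl10l itself had 74.5, 49.8 and 61.4 CPM against 38.3, 20.4 and 14.3 CPM (log2 difference 1.65, SE 0.39, adjusted p = 0.011). These levels rest on only 56, 23 and 21 UMIs of Rpl10l in T and 4, 5 and 6 in UC. The T levels and shares lay above UC without overlap, but VC-T 1 and VC-R 1 had 60.9 and 59.6 CPM, with shares of 20.7% and 27.8%. Against VC-T 2 and 3 the difference was 0.81 and did not pass (adjusted p = 0.10). Rpl10 fell in T spermatogonia, from 335, 399 and 419 CPM in UC to 228, 270.5 and 301 CPM (-0.58, SE 0.16, adjusted p = 0.032), and VC-T 1 and VC-R 1 had 234 and 155 CPM. In T spermatogonia the summed markers of spermatids were at 206 to 512 CPM, against 106 to 191 CPM in UC. Those of spermatocytes were at 1300 to 1440 against 1050 to 1220 CPM, and those of spermatozoa at 262 to 607 against 1110 to 2100 CPM. In the same order VC-T had 94.5 to 404, 1070 to 1560 and 548 to 990 CPM. VC-R had 47.4 to 548, 1000 to 1350 and 766 to 1660 CPM. The part of these markers in the result was not tested.

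Over the whole set, more members were lower than higher in T. In spermatogonia 3 rose and 18 fell of 79 tested, against 4.99% higher and 1.74% lower of all genes. In spermatocytes 0 rose and 19 fell of 78 (0.558% and 1.16% of all genes), and with same-numbered mice paired by a replicate block 2 rose and 24 fell (0.914% and 4.25%). In spermatids 9 rose and 42 fell of 76 (21.9% and 26.4% of all genes). The members' median difference was -0.27, -0.27 and -0.23 in the 3 stages, against 0.0040, -0.018 and 0.045 over all genes. Of the 42 that fell in spermatids 25 encode 60S and 17 encode 40S proteins.

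Scaling and control libraries bear on those counts. With total UMIs the spermatid split turned to 22 higher and 14 lower, beside 41.5% and 20% of all genes, whose median was at 0.28. The spermatocyte split was then 2 higher and 4 lower (0.93% and 0.833% of all genes). Against VC-T 2 and 3, members were lower in 53 of 79 in spermatogonia (1.58% of all genes), 30 of 79 in spermatocytes (5.88%) and 35 of 78 in spermatids (24.5%). They were higher in 0, 0 and 2 (7.46%, 2.76% and 15.3%). The low-UMI clusters held 80.8% of the spermatids of VC-T 2 and 6.01% to 11.2% of those in T, and their part in the spermatid count was not tested. With VC-T 1 included 0, 1 and 0 members passed, while 2, 43 and 20 had an unadjusted p under 0.05 (3.85%, 13.3% and 26.6% of all genes). In those fits 0% of all genes passed in spermatogonia and in spermatids, and 0.310% were higher and 0.0982% lower in spermatocytes.

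Without 1 library the spermatocyte calls ranged from 0 to 36. Leaving out UC 1 gave 4 higher and 32 lower (2.08% and 4.40% of all genes), and leaving out UC 2 gave 1 lower (0.0233% of all genes). Leaving out any T library or UC 3 gave 0 members, in fits that called at most 0.0233% of all genes in either direction. In spermatogonia 1 rose and 11 fell without T 1 (2.01% and 1.96% of all genes) and 3 and 7 without T 3 (3.68% and 1.2%). The counts there were 2 and 8 without UC 2 (1.68% and 1.33%) and 2 and 5 without UC 3 (2.83% and 0.654%). The summed share in T spermatogonia was 11.2%, 12.0% and 11.3% of UMIs, below the 12.8% to 14.2% of UC, with VC-T at 10.2%, 15.0% and 17.0% and VC-R 1 at 10.9%, and that in T spermatids was 4.21%, 4.15% and 4.14%, within the 3.88% to 4.16% of UC apart from T 1. With cells matched on pseudotime the spermatid difference was -0.411 percentage points in place of 0.129. In T spermatids the summed markers of spermatozoa were at 2890 to 3080 CPM, against 4980 to 5850 CPM in UC and 3110 to 5830 CPM in VC-T, and those of spermatocytes at 766 to 840 CPM against 403 to 487 CPM in UC. Their part in the result was not tested.

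**Figure D4:**
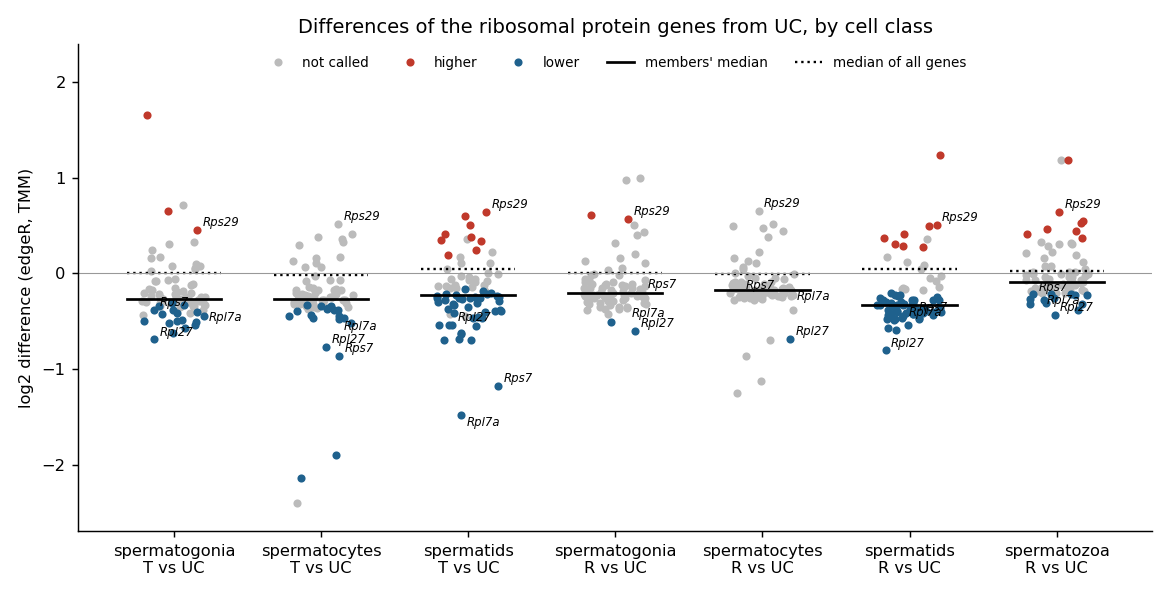
log2 difference from UC of each ribosomal protein gene tested (points) in T and in R by cell class (x axis), by edgeR with TMM; red and blue mark genes higher or lower at adjusted p under 0.05, the solid line is the members' median and the dotted line the median of all genes. The members' medians lie between -0.33 and -0.09 in all 7 comparisons, below those of all genes, and Rps7 and Rpl7a stand apart in T spermatids.

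Rps7 and Rpl7a showed the largest falls in T spermatids. The start of each gene on GRCm38, from RefSeq promoter windows and with 20 bases either side of the start site, is shown here. Capitals mark CTTCCG and CTTTC, which are core letters of sites for ETS factors and of the pyrimidine-rich start.
Rps7 (chr12:28635934-28635973, minus strand): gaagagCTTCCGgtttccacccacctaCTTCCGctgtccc
Rpl7a (chr2:26910787-26910826, plus strand): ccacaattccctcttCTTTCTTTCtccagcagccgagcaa
CTTTC on the sense strand within 25 bases of a start was found in 31.7% of the 60 members with a RefSeq window, against 7.87% of all genes with a window, and CTTCCG on either strand in the 300-base window in 68.3% against 18.8%. The marked stretch of Rpl7a holds CTTTC at 2 places that share a C, and 1 member held both motifs within 25 bases of a start.

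Rps7, a 40S protein that also binds the p53 regulator MDM2, had 714, 776 and 654 CPM in the spermatids of T. The UC mice had 1386, 1380 and 1336 CPM, the VC-T mice 1324, 1217 and 1287 CPM, the VC-R mice 1348, 1384 and 1309 CPM and the R mice 1143, 1210 and 1208 CPM. Every T value lay far below all 12 other libraries, VC-T 1 included. The log2 difference from UC was -1.17 (SE 0.07, adjusted p = 1.4e-08) and that from VC-T 2 and 3 was -1.07 (adjusted p = 1.8e-05). With all 3 VC-T libraries it was -1.04 and missed the threshold (adjusted p = 0.11), in a fit where 0% of all genes passed. In spermatocytes T had 997, 1111 and 1088 CPM against 1767 to 1816 CPM in UC and 1600 to 1808 CPM in VC-T (-0.86, SE 0.08, adjusted p = 0.021), and there the difference also passed against all 3 VC-T libraries (-0.76, adjusted p = 0.030). In spermatogonia Rps7 fell by 0.38 (adjusted p = 0.027), with T at 1713 to 2051 CPM, and VC-T 1 at 1746 CPM lay within that range.

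Rpl7a, a 60S protein whose gene hosts small nucleolar RNAs, had 102, 85.5 and 69.0 CPM in T spermatids. All 12 other libraries lay between 179 and 223 CPM, with UC at 210, 188 and 223 CPM and VC-T at 201, 191 and 208 CPM. The log2 difference was -1.48 from UC (SE 0.11, adjusted p = 1.0e-07) and -1.46 from VC-T 2 and 3 (adjusted p = 1.8e-05). It was -1.43 from all 3 VC-T libraries (adjusted p = 0.11), in the same fit where 0% of all genes passed. In spermatocytes the fall was smaller, with T at 387, 380 and 411 CPM and UC at 459, 538 and 526 CPM (-0.48, SE 0.05, adjusted p = 0.025). Both genes held their fall in spermatids with total UMIs, at -0.94 for Rps7 and -1.25 for Rpl7a, and with cells matched on pseudotime, at -1.24 and -1.63.

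The 2 genes were the extremes of a short list. In spermatids 7 of 75 members at a mean of at least 10 CPM had every T library below all 12 others (Rpl7, Rpl7a, Rpl9, Rpl15, Rpl17, Rps7 and Rps15), against 5.74% of all genes at that level. In spermatocytes 9 of 76 did, among them Rpl5, Rpl13a and Rps10, against 2.00% of all genes, and Rpl7a, Rpl17, Rps7 and Rps15 were in both lists. A fit of both stages with the library as a block tested whether the T effect differed between them. Of 15154 genes 410 passed, and so did 6 of 78 members: the effect was lower in spermatids by 1.27 for Rpl7a (adjusted p = 0.022), 0.55 for Rpl7, 0.54 for Rps7, 0.46 for Rpl9 and 0.46 for Rpl17, and higher by 2.71 for the X-linked Rpl36a. In T spermatids Rpl9 had 231 to 242 CPM against 312 to 334 CPM in UC, and Rpl17 had 230 to 248 CPM against 313 to 345 CPM.

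**Figure D5:**
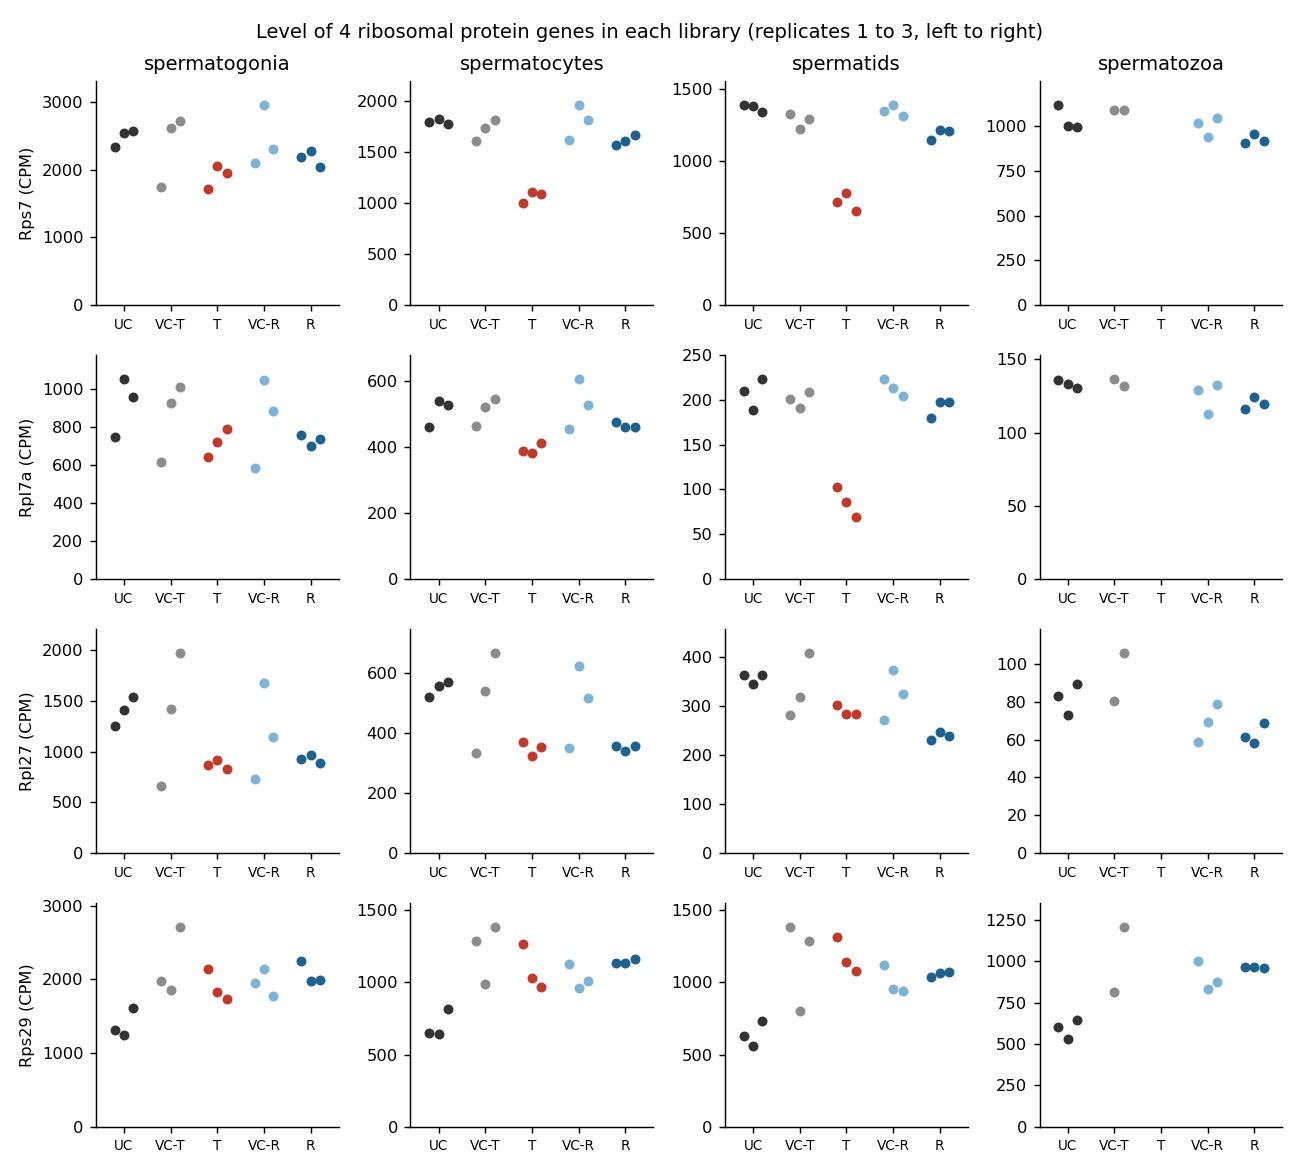
CPM (y axis, from 0) of Rps7, Rpl7a, Rpl27 and Rps29 (rows) in spermatogonia, spermatocytes, spermatids and spermatozoa (columns), with 1 point per library in replicate order within each group. In spermatids the 3 T points of Rps7 and Rpl7a lie below all others, Rpl27 is low in T and R but also in VC-T 1 and VC-R 1, and the 3 UC points of Rps29 lie below all others.

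X-linked members were also lower in T spermatocytes taken as a whole, where the share of early cells differed. Rpl36a had 2.89, 1.90 and 1.61 CPM against 7.97, 7.33 and 11.5 CPM in UC (-2.14, SE 0.30, adjusted p = 0.037), and Rpl10 had 2.97, 3.02 and 4.63 CPM against 11.4, 8.38 and 15.7 CPM (-1.90, SE 0.30, adjusted p = 0.044). Early spermatocytes made up 0.538% to 1.01% of the spermatocytes in T and 6.48% to 19.4% in UC. Among late spermatocytes alone the X-linked genes together took 0.000634% ± 0.000178 of UMIs in T and 0.00106% ± 0.00110 in UC (n = 3 each), with overlap. UC 1 set the UC mean, with 0.00233% against 0.000296% and 0.000568% in UC 2 and 3, so no direction can be read. VC-T 1, whose early share was 0.802%, had 1.98 CPM of Rpl36a, within the T range.

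Rpl27, a 60S protein, was lower in T and in R than in UC in every stage tested. In spermatocytes it had 520, 557 and 570 CPM in UC, 369, 325 and 354 CPM in T and 358, 342 and 357 CPM in R. The T and R values overlapped each other and lay below UC (T -0.77, SE 0.06, adjusted p = 0.0068; R -0.69, SE 0.04, adjusted p = 0.012). VC-T libraries had 335, 542 and 669 CPM and VC-R libraries 352, 624 and 519 CPM, so that VC-T 1 and VC-R 1 stood with the JQ1 libraries and the other 4 vehicle libraries with UC.

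In R spermatids Rpl27 had 230, 247 and 240 CPM against 364, 345 and 365 CPM in UC (-0.80, SE 0.08, adjusted p = 4.7e-08), and T spermatids had 302, 285 and 285 CPM (-0.54, SE 0.06, adjusted p = 9.3e-06). VC-R had 272, 375 and 326 CPM and VC-T 281, 319 and 410 CPM, which puts the R libraries below all vehicle libraries. The difference of R from VC-R passed in spermatids (-0.69, adjusted p = 0.042) and in no other stage. Without the low-UMI clusters it was -0.37 (adjusted p = 0.997), in a fit where 0% of all genes passed. The difference of R from UC still passed without these clusters (-0.52, adjusted p = 3.1e-05). Rpl27 was the only member that passed in R spermatocytes. In spermatozoa it had 61.5, 58.5 and 68.6 CPM in R against 83.3, 73.0 and 89.5 CPM in UC (-0.44, SE 0.08, adjusted p = 0.00025), and VC-R 1 at 58.6 CPM lay within the R range.

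Rps29, Rps27, Rps28, Rpl38 and Rpl35 moved the other way, and their pattern separated UC from everything else. Rps29 encodes a small zinc-binding 40S protein. In spermatids it had 627, 561 and 733 CPM in UC, 1313, 1145 and 1079 CPM in T and 1039, 1064 and 1071 CPM in R (T 0.65, SE 0.09, adjusted p = 2.4e-05; R 0.51, SE 0.08, adjusted p = 2.5e-05). Vehicle libraries were as high, at 1387, 802 and 1289 CPM in VC-T and 1118, 955 and 940 CPM in VC-R. All 12 other libraries lay above the highest UC library. Against vehicle the sign turned, to -0.10 in T against VC-T 2 and 3 (adjusted p = 0.70) and -0.15 in R against VC-R (adjusted p = 0.28).

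Rps27, also a zinc-binding 40S protein, had 405, 377 and 377 CPM in UC spermatids against 688, 646 and 604 CPM in T, 549, 587 and 531 CPM in R, and 515 to 781 CPM in the 6 vehicle libraries (T 0.51, R 0.30 from UC). Rpl38 had 402, 347 and 424 CPM in UC, 637, 576 and 544 CPM in T and 539, 567 and 542 CPM in R (T 0.35, R 0.27), with the vehicle libraries at 488 to 766 CPM. Neither passed against vehicle in spermatids (Rps27 adjusted p = 0.22 in T and 0.13 in R, Rpl38 adjusted p = 0.13 and 0.17). In spermatids 8 of 75 members had all UC libraries below all 12 others (Rpl29, Rpl35, Rpl37a, Rpl38, Rps21, Rps27, Rps28 and Rps29), against 0.900% of all genes, and in spermatozoa 8 of 75 had all UC libraries below the 8 others (2.03% of all genes), with Rpl37 in place of Rps21.

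The vehicle groups were also tested against UC. VC-R spermatozoa called 4 members higher (Rpl35, Rpl38, Rps27 and Rps29, 0.233% of all genes), with Rps29 at 0.67 (adjusted p = 0.0015). In VC-R spermatogonia, spermatocytes and spermatids 0 members were higher (0.00% of all genes in each, edgeR), although 5, 8 and 10 had an unadjusted p under 0.05 in either direction (4.06%, 1.56% and 2.38% of all genes). VC-T 2 and 3 called 5 higher in spermatogonia (0.115% of all genes), 0 in spermatocytes and in spermatids (0% and 0.0597% of all genes, edgeR, with 13 and 12 members at an unadjusted p under 0.05, as 3.46% and 7.12% of all genes) and 12 higher in spermatozoa (2.52%), and 0 members were lower in any of these vehicle comparisons, with Rps29 at 0.86 in spermatozoa (adjusted p = 1.4e-06). The groups above UC were injected and were both younger (10 weeks) and older (16 weeks) than UC (15 weeks). The cause of the low UC levels was not tested.

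After recovery most changes were found in spermatids. In R against UC 2 members rose and 2 fell of 79 in spermatogonia (0.561% and 0.0623% of all genes), 0 rose and 1 fell of 79 in spermatocytes (0.00% and 0.00731%), 8 rose and 56 fell of 77 in spermatids (21.2% and 19.6%), and 8 rose and 13 fell of 78 in spermatozoa (5.10% and 2.64%). Those in spermatogonia were Rps29 and Rps27, which rose by 0.57 and 0.61, and Rpl27 and Rps18, which fell by 0.60 and 0.51. The members' median was -0.20, -0.17, -0.33 and -0.09 in the 4 stages. In spermatocytes 57 members had an unadjusted p under 0.05 (8.32% of all genes), and DESeq2 called 5 higher and 48 lower (0.38% and 1.5% of all genes). There edgeR called 4 higher and 22 lower without UC 1 (0.483% and 0.462% of all genes) and 0 without any other single library (0% of all genes). In spermatogonia the 4 calls dropped to 2 without R 2, 1 without UC 1 or UC 2 and 0 without R 3, in fits that called at most 0.256% of all genes in either direction. The 21 calls in spermatozoa dropped to 13 without R 1 (3.91% higher and 1.19% lower of all genes).

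The R spermatid count went with the low-UMI clusters. Without these clusters 10 rose and 15 fell (7.78% and 9.39% of all genes), and the members' median was -0.09. Against VC-R 0 members were higher and 18 of 77 lower with all spermatids (3.68% and 0.705% of all genes). Without the clusters 0 were higher and 0 lower against VC-R, in a fit where 0% of all genes passed. In that fit 4 members had an unadjusted p under 0.05 (2.11% of all genes). With total UMIs the split against UC was 13 higher and 27 lower, beside 35.5% and 7.11% of all genes, with the median of all genes at 0.27. In spermatozoa it was 10 higher and 9 lower (5.54% and 1.16% of all genes). The erythroid markers Hbb-bs, Hbb-bt, Hba-a1, Hba-a2 and Alas2 together reached 837 to 1270 CPM in R spermatids against 0.260 to 118 CPM in UC, and 8 Sertoli markers 77.8 to 95.8 CPM against 31.4 to 49.8 CPM. Their part in the result was not tested.

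Among the members that fell in R spermatids, Rps18 had 274, 268 and 276 CPM against 342, 342 and 370 CPM in UC (-0.59, SE 0.08, adjusted p = 2.4e-06), and Rps9 had 379 to 395 CPM against 479 to 511 CPM (-0.57, SE 0.08, adjusted p = 3.4e-06). Rpsa, a 40S protein also known as the laminin receptor precursor, had 338, 303 and 307 CPM against 375, 409 and 399 CPM (-0.54, SE 0.08, adjusted p = 1.3e-05), and it was at 287, 284 and 289 CPM in T (-0.70, SE 0.07, adjusted p = 1.1e-06). VC-T 1 at 288 CPM lay within the T range, the other VC-T libraries at 385 and 373 CPM did not. Without the low-UMI clusters the R differences were -0.32 for Rps18, -0.33 for Rps9 and -0.32 for Rpsa, and all 3 still passed (adjusted p = 0.0017, 0.0010 and 0.0039). X-linked Rpl39 rose in R spermatids, from 0.979, 1.04 and 1.28 CPM in UC to 2.39, 3.05 and 3.53 CPM (1.24, SE 0.36, adjusted p = 0.0079). These levels are near the floor, with 3, 4 and 7 UMIs of Rpl39 in UC, 19, 32 and 77 in R and 8, 7 and 3 in VC-R. VC-R libraries had 1.96, 1.22 and 0.848 CPM of Rpl39 and VC-T libraries 2.23 to 2.35 CPM, all below R, and the difference from VC-R did not pass (0.96, adjusted p = 0.096).

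Rps7 and Rpl7a were higher in R than in T spermatids, but Rps7 in R lay below every UC and vehicle library. Rps7 in R spermatids, at 1143 to 1210 CPM, was still 0.43 below UC (SE 0.07, adjusted p = 6.9e-05) and Rpl7a, at 179 to 197 CPM, 0.34 below (SE 0.08, adjusted p = 0.0021), with R and UC overlapping for Rpl7a. Against VC-R neither passed (Rps7 -0.42, adjusted p = 0.050; Rpl7a -0.39, adjusted p = 0.054).

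The ribosomal stalk, formed by Rplp0, Rplp1 and Rplp2 and known for recruiting elongation factors, did not move as 1 unit. In T spermatids Rplp0 had 1101, 1192 and 1214 CPM against 928, 898 and 925 CPM in UC (0.11, SE 0.06, adjusted p = 0.14), whereas Rplp1 fell by 0.30 (adjusted p = 0.0019) and Rplp2 was at 0.01. Rplp1 levels overlapped, at 416 to 444 CPM in T and 421 to 481 CPM in UC. In R spermatids all 3 fell, by 0.33, 0.28 and 0.33. These calls depend on the low-UMI clusters and the scaling. Without the clusters the values in R were -0.04, -0.10 and -0.09 (adjusted p = 0.67, 0.31 and 0.37), and against VC-R they were -0.36, -0.30 and -0.35 and missed the threshold (adjusted p = 0.065, 0.085 and 0.066). With total UMIs Rplp0 and Rplp2 were higher in T (0.35 and 0.24, adjusted p = 0.00011 and 0.012), Rplp1 was at -0.06, and none of the 3 passed in R.

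Other genes of the ribosome's life cycle, taken from fixed lists, gave a partly different picture in T spermatids, beside 21.9% higher and 26.4% lower of all genes. Of 34 ribosome biogenesis genes tested 14 rose and 3 fell, among them the nucleolar Nop56 (2.28, SE 0.31, adjusted p = 3.1e-05) and Gnl3 (1.37, SE 0.16, adjusted p = 5.8e-06). Of 30 initiation factor genes 8 rose and 13 fell, led by the cap-binding Eif4e (-1.98, SE 0.11, adjusted p = 8.2e-09) and by Eif4h, which stimulates the initiation helicase (-1.75). Of 8 elongation factor and related genes 2 rose and 3 fell, of which Eef1g fell by 1.14 and Tpt1 by 0.67. Of 76 mitochondrial ribosomal protein genes 19 rose and 8 fell. In R spermatids, beside 21.2% higher and 19.6% lower of all genes, 3 biogenesis genes rose and 7 fell of 34, 0 initiation genes rose and 17 fell of 30, and 1 mitochondrial gene rose and 27 fell of 78. These lists were not counted without the low-UMI clusters, where 7.78% of all genes were higher and 9.39% lower.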

How the data were processed

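Testis cells of 15 mice were measured by 10x 3′ single-cell RNA-seq. The authors deposited raw UMI counts per gene and barcode, made with Cell Ranger on mm10; the submitters' notes and methods give version 3.0.0 but the file headers a later one, whose default also counts intronic reads, and which applied is not known. No per-sample column was left unmapped. Filters kept cells that had 500 or more genes, 1000 or more UMIs and a mitochondrial share below 30%, and the highest 5.4% of Scrublet doublet scores in each library were removed. Cells were clustered in Scanpy 1.11.5 with leidenalg 0.10.2 (2000 variable genes, 30 components, 20 neighbours, resolution 1.2) and named by markers; the split of spermatocytes into early and late was set after cluster markers, not member values, were seen.

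UMIs were summed per library and class, for sums of at least 10 cells, and tested in R 4.3.3 with edgeR 4.0.16 (quasi-likelihood, TMM, filterByExpr, Benjamini-Hochberg adjustment over all genes, threshold 0.05). Scripts were tested on simulated data. DESeq2 1.42.0 was an alternative. Genes named were Rpl27, Rps29, the X-linked genes, the copies, the stalk genes and, in each comparison, the 5 members with the smallest adjusted p in each direction among those called without overlap between groups, with at most 4 genes per other list; a few others were named after their values were seen, as were the counts of libraries without overlap and the alternatives without low-UMI clusters. Some items are not reported here. Members and lists were chosen with earlier results of these data known. Replicate numbers were checked as pairs: only in T against UC spermatocytes did all same-numbered libraries deviate together (r = 0.664, 0.405 and 0.122). Each library is 1 mouse on 1 pooled lane, so no batch could be compared. Depth was 83924 to 21811911 UMIs per class sum of the 4 germ-cell classes.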

Additional observations from a re-analysis of the deposited data

Results flagged for a closer look

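The T effect in spermatids differed from that in spermatocytes for 6 members, tested as the difference of the effects in 1 fit, against 2.71% of all genes. The difference (spermatids minus spermatocytes, log2) was -1.27 for Rpl7a, -0.548 for Rpl7, -0.542 for Rps7, -0.464 for Rpl9 and -0.461 for Rpl17, and 2.71 for the X-linked Rpl36a. The last of these moved with the share of early spermatocytes, which was 0.538% to 1.01% in T and 6.48% to 19.4% in UC, and the part of that share was not tested.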

How the results depend on the processing

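Counts of members called varied with the test, the controls and single libraries. In T the 21 calls in spermatogonia became 8 with DESeq2, 11 without a count filter, 1 with cells matched on pseudotime, 6 with free RNA removed, 53 against VC-T 2 and 3 and 0 against all 3 VC-T, and 7 to 27 without 1 library. Of all genes, 1.42% rose and 0.807% fell with DESeq2, and 2.53% and 0.708% without the filter. The shares were 0.468% and 0.795% matched, 0.501% and 0.0884% with free RNA removed, and 0% against all 3 VC-T. The 19 in spermatocytes became 55 with DESeq2, 6 with total UMIs, 45 matched, 9 with free RNA removed, 30 and 1 against the same vehicle sets, and 0 to 36 without 1 library. Of all genes, 1.32% rose and 4.76% fell with DESeq2, and 0.930% and 0.833% with total UMIs. The shares were 3.86% and 5.00% matched, and 0.336% and 0.593% with free RNA removed. The 51 in spermatids became 0 against all 3 VC-T (0% of all genes) and 42 to 57 without 1 library. In R the 4 in spermatogonia became 0 with DESeq2, matched cells, at least 2000 UMIs per cell or VC-R, where at most 0.0623% of all genes passed in either direction. They became 1 with free RNA removed (0.554% and 0.0168% of all genes) and 0 to 4 without 1 library. The 1 in spermatocytes became 53 with DESeq2, 26 matched (1.31% and 0.924% of all genes), 0 with total UMIs or VC-R (0% of all genes) and 0 to 26 without 1 library. The 64 in spermatids became 40 with total UMIs, 25 without low-UMI clusters, 18 against VC-R and 0 with both (0% of all genes). The 21 in spermatozoa became 0 against VC-R (0% of all genes) and 13 to 24 without 1 library. The 44 between late spermatocytes and spermatids became 8 with free RNA removed (24.4% higher and 24.5% lower of all genes) and 8 to 33 without 1 library. The causes were not tested.

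With the replicate number as a block, R spermatocytes had 0 calls (0% of all genes). No other count moved by over 1.5 times. Without the block the stage counts were 70, 45, 45 and 71.

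The Rpl10l share difference (percentage points) against vehicle was -1.19 in R spermatogonia, 7.2 in R early spermatocytes, -0.672 in T late spermatocytes, 6.01 and -3.87 in T and R spermatids and 5.77 in R spermatozoa. With at least 2000 UMIs it was 23.1 and 2.15 in T and R spermatogonia, 9.12 in R early spermatocytes, and 2.58 and -0.855 in T and R spermatids; with free RNA removed it was 2.65 and -2.33 in spermatids and 3.15 in R spermatozoa. For Rpl39l it was 13.1, 0.108 and -0.145 against vehicle in T spermatogonia, T spermatids and R spermatozoa, -18.4, 3.28 and -0.119 with 2000 UMIs in R spermatogonia, early spermatocytes and spermatids, and -0.0659 and -0.06 with free RNA removed in R spermatids and spermatozoa. The summed share difference became -3.45 with 2000 UMIs and -1.44 matched in T spermatogonia, -0.411 matched in T spermatids, and 0.000699 matched and 0.0627 without low-UMI clusters in R spermatids.

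Signs turned for single genes (log2). Against VC-T 2 and 3 and then all VC-T, T spermatogonia gave Rps27 -0.28 and -0.194 and Rps29 -0.309 and -0.267, with Rpl36a -0.647 against VC-T 2 and 3, and T spermatids gave Rps29 -0.102 and -0.175, Rps27 -0.276 and -0.224, Rps28 -0.244 and -0.258 and Rpl38 -0.371 and -0.368. Against VC-R, R spermatids gave Rps29 -0.152, Rps27 -0.259, Rps28 -0.204 and Rpl38 -0.221, with Rps18 0.00259 without low-UMI clusters, and R spermatozoa gave Rps29 -0.0534, Rps27 -0.0821, Rpl38 -0.0564, Rpl35 -0.251 and Rps28 -0.013. With total UMIs, T spermatids gave Rpl39l 0.229, late against early spermatocytes Rplp0 -0.0858 and Rpl27 -0.485, spermatids against late spermatocytes Rplp2 -0.297, and spermatozoa against spermatids Rpl39l -1.14, Rplp0 -0.0192, Rplp2 -0.654 and Rps29 -0.111.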
